A study of Homo sapiens with 6 samples.

Results

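The BMP genes examined here are 10 genes of bone morphogenetic protein (BMP) signalling: the ligand genes BMP2 and BMP4, the receptor genes BMPR1A and BMPR2, the decoy receptor gene BAMBI, the secreted antagonist genes NOG and GREM1, and the transducer genes SMAD1, SMAD5 and SMAD6. They were taken by gene symbol from a table of 58302 genes, and all 10 were found. Transcripts were sequenced from PC-3, a prostate cancer cell line that was established from a metastasis in bone. Cells given a lentivirus for overexpression of BHLHE22, which encodes a basic helix-loop-helix transcription factor, were compared with cells given a blank vector lentivirus, with 3 libraries in each group. Both groups were therefore infected cells of the same line, and the labels give no time after infection, no selection and no separate clones. Separate cultures behind the 3 libraries of each group are not mentioned either, so the p-values cover the spread of these libraries only, and that spread may be technical.

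BMP ligands are secreted dimers that bring type I receptors such as BMPR1A together with type II receptors such as BMPR2. The activated type I receptor phosphorylates SMAD1 and SMAD5, which join SMAD4 and enter the nucleus. Noggin (NOG) and gremlin 1 (GREM1) bind the ligands outside the cell, BAMBI is a receptor-like protein without a kinase domain, and SMAD6 inhibits the pathway inside the cell. Several inhibitors are themselves induced by BMP signalling and act as feedback. In bone, BMPs drive osteoblast differentiation, and prostate cancer metastases often grow there.

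Total counts ran from 12186723 to 15808990 in the BHLHE22 libraries and from 13889050 to 15949537 in the vector libraries. Mitochondrial genes held 4.95% to 5.21% of the counts in the BHLHE22 libraries and 7.53% to 8.32% in the vector libraries, with no overlap, and the part of this difference in the results below was not tested. BHLHE22 itself had 98, 92 and 133 reads in the BHLHE22 libraries and 1 read in each vector library. The keratin genes KRT8 and KRT18 averaged 159 and 117 CPM (counts scaled to library size) in BHLHE22 cells, and 198 and 153 CPM in vector cells. Both were called lower. Of the other epithelial markers, EPCAM was called higher, with 55.1 CPM in BHLHE22 and 24.4 CPM in vector cells, and CDH1 was not called, with 53.5 CPM in BHLHE22 and 60.8 CPM in vector cells. Androgen receptor had 3 reads over the BHLHE22 and 5 over the vector libraries, and KLK3 (prostate-specific antigen) had 0 in all 6. Of the blood cell markers PTPRC, TYROBP, CD3E and HBB, the first had 3 reads in BHLHE22 cells and 0 in vector cells, and the others were at 0. Of the endothelial markers, CDH5 had 0 reads in BHLHE22 and 2 in vector cells, VWF had 2 reads in BHLHE22 and 4 in vector cells, and PECAM1 averaged 23.1 CPM in BHLHE22 and 55.7 CPM in vector cells. Of the fibroblast markers, DCN had 5 reads in BHLHE22 and 0 in vector cells, while COL1A1, COL3A1, LUM and PDGFRA averaged 47.6, 0.923, 1.94 and 10.3 CPM in BHLHE22 cells and 65.9, 7.64, 0.437 and 9.27 CPM in vector cells. PECAM1, COL1A1 and COL3A1 were called lower, LUM was called higher and PDGFRA was not called. The part of all these markers in the results below was not tested. Over all genes, 49.4% of the 15945 tested were called at an adjusted p under 0.05 by edgeR's quasi-likelihood test, 25.1% higher and 24.3% lower in BHLHE22 cells. The higher share of the calls was 50.7%, against 64% with unscaled library sizes, under which the median log2 fold change over all genes was 0.15. The changes below are therefore relative to the typical gene.

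Of the 4 inhibitor genes in the set, NOG, SMAD6 and BAMBI fell in BHLHE22 cells and GREM1 had too few reads to be tested; the further antagonists described below moved in both directions. The mean levels of NOG, SMAD6 and BAMBI were 9.65, 38.5 and 19.5 CPM in BHLHE22 cells, against 25, 71.6 and 53.9 CPM in vector cells. In bulk RNA, fewer cells of a type and less RNA per cell cannot be told apart. SMAD5 also fell, while BMP4, BMPR1A, BMPR2 and SMAD1 did not pass the test. BMP2, a rare transcript, was called higher at the edge of the threshold. Of the 9 tested genes, 4 were thus lower and 1 higher. That is 55.6% called, against 49.4% of all tested genes, a share near the background. The lower share was 44.4% against a background of 24.3%. The median log2 fold change of the 9 genes was -0.28, and that of all tested genes was 0.0038.

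**Figure D1:**
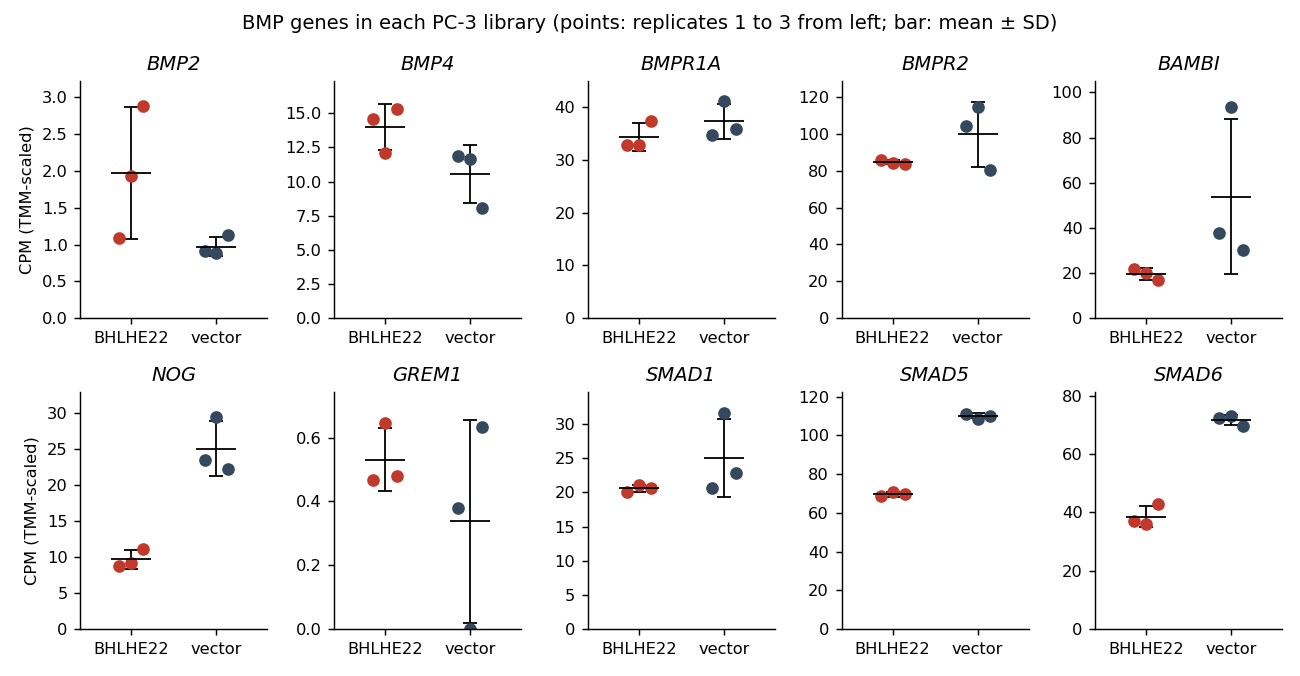
Level of each of the 10 genes in CPM (TMM-scaled, linear axes from 0) in the 3 BHLHE22 libraries and the 3 vector libraries; points are libraries, bars are mean ± SD. The BHLHE22 points of BAMBI, NOG, SMAD5 and SMAD6 lie below every vector point, and those of BMP4 lie above every vector point. Of all tested genes, 60.5% had groups that did not overlap. Vector replicate 2 stands high for BAMBI at 93.4 CPM.

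Of the ligand genes, BMP4 was the more abundant and neither changed firmly. BMP4 (ENSG00000125378, chromosome 14, 53949736 to 53958761, minus strand) encodes a ligand that drives osteoblast differentiation and patterns many epithelia. It had 14.6, 12.1 and 15.3 CPM in BHLHE22 replicates 1 to 3 and 11.9, 11.6 and 8.1 CPM in vector replicates 1 to 3. Each BHLHE22 library was above each vector library, but by a narrow margin, and 60.5% of all tested genes had groups that did not overlap. The log2 fold change was 0.41 (SE 0.18, 95% interval -0.01 to 0.83) with an adjusted p of 0.0938 by edgeR's quasi-likelihood test, so BMP4 was not called. With unscaled library sizes it was called, with a log2 fold change of 0.56 and an adjusted p of 0.0292 by the same test.

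BMP2 (ENSG00000125845, chromosome 20, 6767664 to 6780280, plus strand) encodes the ligand closest in family to BMP4. It had 14, 27 and 48 reads in the BHLHE22 libraries and 12, 13 and 16 reads in the vector libraries. In CPM these were 1.09, 1.94 and 2.88 in BHLHE22 cells and 0.908, 0.884 and 1.13 in vector cells. BHLHE22 replicate 3 was the highest, and BHLHE22 replicate 1 lay within the range of the vector libraries, so the groups overlapped. The log2 fold change was 1.03 (SE 0.37, 95% interval 0.17 to 1.90) with an adjusted p of 0.04995 (edgeR's quasi-likelihood test). The call ended without any single library other than BHLHE22 replicate 1, with adjusted p-values from 0.0760 to 0.176, and the log2 fold change was 0.65 without BHLHE22 replicate 3. It also ended with DESeq2 (adjusted p = 0.0983), with limma-voom (adjusted p = 0.0802), with DESeq2's size factors in edgeR (adjusted p = 0.0512) and with a filter of 1 CPM in 3 libraries (adjusted p = 0.0504).

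The receptor genes did not pass the test. BMPR1A (ENSG00000107779, chromosome 10, 86756601 to 86932838, plus strand), a type I receptor kinase, had 32.9, 32.9 and 37.4 CPM in BHLHE22 cells and 34.8, 41.1 and 35.9 CPM in vector cells. Its groups overlapped, and the 95% interval of the log2 fold change ran from -0.37 to 0.14 around -0.12. BMPR2 (ENSG00000204217, chromosome 2, 202376936 to 202567751, plus strand), the type II receptor that is specific to BMP ligands, had 85.8, 83.9 and 83.8 CPM in BHLHE22 cells and 104, 114 and 80.3 CPM in vector cells. Vector replicate 3 was the lowest of the 6 libraries and the other vector libraries were the highest. The log2 fold change of BMPR2 was -0.24 (95% interval -0.54 to 0.06) with an adjusted p of 0.161 by edgeR's quasi-likelihood test. Without vector replicate 3 it was called lower, with a log2 fold change of -0.37 and an adjusted p of 0.0118 in the same test.

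BAMBI (ENSG00000095739, chromosome 10, 28677342 to 28682939, plus strand) had the largest fitted difference of the 9 tested genes, and it rested largely on vector replicate 2. It had 21.9, 19.9 and 16.9 CPM in BHLHE22 cells and 37.7, 93.4 and 30.4 CPM in vector cells. The groups did not overlap, and vector replicate 2 lay far above the other vector libraries. The log2 fold change was -1.46 (SE 0.45, 95% interval -2.55 to -0.38) with an adjusted p of 0.0361 by edgeR's quasi-likelihood test. Without vector replicate 2 the fall was smaller but still called, with a log2 fold change of -0.80 and an adjusted p of 0.00848. The call ended without any 1 of the BHLHE22 libraries (adjusted p = 0.0870, 0.102 and 0.122 for replicates 1 to 3), with limma-voom (0.0612) and without the low-count filter (0.141).

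The secreted antagonists differed in abundance. NOG (ENSG00000183691, chromosome 17, 56593699 to 56595590, plus strand) is a gene of 1 exon whose product holds BMP2 and BMP4 away from their receptors. It had 8.74, 9.11 and 11.1 CPM in BHLHE22 cells and 23.4, 29.4 and 22.3 CPM in vector cells. The highest BHLHE22 library was well below the lowest vector library. NOG was 2.59-fold lower in BHLHE22 cells (log2 fold change -1.37, SE 0.16, 95% interval -1.74 to -1.01, adjusted p = 0.000513, edgeR's quasi-likelihood test). A larger absolute log2 fold change was found for 8.81% of all tested genes. GREM1 (ENSG00000166923, chromosome 15, 32717974 to 32745107, plus strand), the antagonist of the DAN family, had 6, 9 and 8 reads in BHLHE22 cells and 5, 0 and 9 reads in vector cells. It did not pass the low-count filter, and a difference was not detectable at this depth; the 0 in vector replicate 2 allows a level of up to 0.204 CPM, for counting error only.

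**Figure D2:**
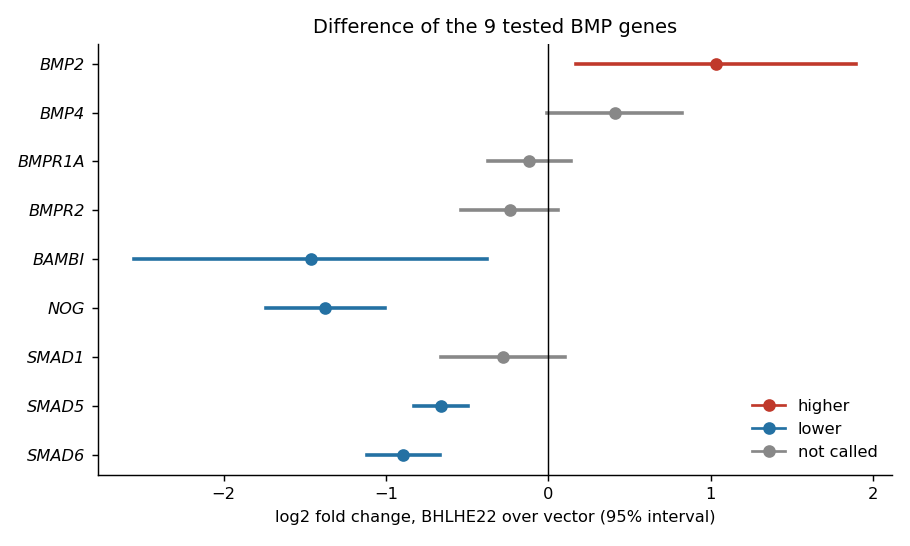
Fitted log2 fold change, BHLHE22 over vector, of the 9 tested genes with its 95% interval; colours give the call at an adjusted p under 0.05. The intervals of NOG, SMAD5 and SMAD6 are short and lie wholly below 0, while that of BAMBI runs from -2.55 to -0.38.

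The transducers were SMAD1 and SMAD5, which carry the signal, and SMAD6, which inhibits it. SMAD1 (ENSG00000170365, chromosome 4, 145481194 to 145558079, plus strand) had 20.1, 21.1 and 20.7 CPM in BHLHE22 cells and 20.6, 31.6 and 22.9 CPM in vector cells. The groups overlapped, with vector replicate 2 again the highest. The log2 fold change was -0.28 (95% interval -0.66 to 0.10) with an adjusted p of 0.195 by edgeR's quasi-likelihood test, and SMAD1 was not called. SMAD5 (ENSG00000113658, chromosome 5, 136132845 to 136188747, plus strand), the close relative of SMAD1, had 68.4, 71 and 69.6 CPM in BHLHE22 cells and 111, 109 and 110 CPM in vector cells. Both groups were tight, and SMAD5 was 1.58-fold lower in BHLHE22 cells (log2 fold change -0.66, SE 0.07, adjusted p = 0.000405, edgeR's quasi-likelihood test). The difference between the changes of SMAD1 and SMAD5 was not tested.

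SMAD6 (ENSG00000137834, chromosome 15, 66702228 to 66782848, plus strand) competes with the signalling SMADs and recruits ubiquitin ligases to the receptor. It had 36.9, 36 and 42.7 CPM in BHLHE22 cells and 72.4, 72.9 and 69.6 CPM in vector cells. The groups were far apart relative to their spread. SMAD6 was 1.86-fold lower in BHLHE22 cells (log2 fold change -0.89, SE 0.10, adjusted p = 0.000398, edgeR's quasi-likelihood test). The calls of NOG, SMAD5 and SMAD6 held in all 13 alternative fits, with adjusted p-values of at most 0.00344 for each. SMAD5 shares 610 exonic bases with its antisense gene SMAD5-AS1, which had 10 reads over the BHLHE22 and 13 over the vector libraries.

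Upstream sequence was examined for BAMBI, SMAD5 and SMAD6, the genes of the set that fell and matched an entry, because SMAD1 and SMAD5 bind GC-rich DNA such as GGCGCC, SMAD4 binds sites such as GTCTAGAC, and basic helix-loop-helix factors bind E-boxes, CANNTG. The 250 bases before the transcription start in RefSeq (GRCh38.p14) were searched on both strands. Of the 10 genes, 8 matched an entry, and NOG and BMP2 were not compared. These starts are not always the gene starts given above, so some windows reach into the gene. The searched window of BAMBI ended at 28677520, past the gene start at 28677342, and that of SMAD6 at 66702235, past 66702228. The window of BMP4, 53953396 to 53953645, lay within the gene. The windows of BAMBI (chr10:28677271-28677369, plus strand, the first 99 bases), SMAD5 (chr5:136132595-136132844, plus strand) and SMAD6 (chr15:66701986-66702235, plus strand) are printed 5′ to 3′, with GGCGCC, GTCTAGAC and CANNTG in capitals.
BAMBI: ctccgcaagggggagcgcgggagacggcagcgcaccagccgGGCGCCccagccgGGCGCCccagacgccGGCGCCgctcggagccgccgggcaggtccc
SMAD5: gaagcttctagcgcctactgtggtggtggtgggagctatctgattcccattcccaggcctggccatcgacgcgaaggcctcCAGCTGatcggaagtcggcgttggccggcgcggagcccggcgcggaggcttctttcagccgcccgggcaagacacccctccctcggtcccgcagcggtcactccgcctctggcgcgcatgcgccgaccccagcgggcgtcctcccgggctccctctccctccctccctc
SMAD6: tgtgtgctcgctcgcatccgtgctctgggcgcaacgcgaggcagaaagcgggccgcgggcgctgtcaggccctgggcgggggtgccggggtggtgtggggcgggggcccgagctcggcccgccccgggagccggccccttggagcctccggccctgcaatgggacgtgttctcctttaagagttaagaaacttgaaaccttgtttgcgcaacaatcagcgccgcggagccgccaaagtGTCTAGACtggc

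GGCGCC stood 3 times in the window of BAMBI, once in that of BMPR2, which was not called, and 2 times in that of GREM1, which was not tested. That is 3 of the 8 matched windows, against 15.8% of 27305 promoter windows of that length. These windows were 81.2% (BAMBI), 79.2% (BMPR2) and 76.8% (GREM1) G and C. The 27305 windows were not matched for that content. GTCTAGAC stood once, close to the start, in the window of SMAD6 and in no other of the 8 matched windows. Of all windows, 0.19% held it. It was one of several motifs searched, and this match was not tested. SMAD5 held 1 E-box, CAGCTG, and neither of the other motifs. CANNTG was found in 5 of the 8 matched windows and in 62.4% of all windows. Its forms CATATG and CAGATG, which overlap CANNTG by definition, were in 2.7% and 12.4% of all windows; among the 8 genes, only the window of SMAD1 held CAGATG, read on the other strand, and none held CATATG. Over all 250 bases, the windows of BAMBI, SMAD5 and SMAD6 were 81.2%, 70.4% and 68% G and C, against a median of 57.6%. Such matches describe the letters of the windows and do not show binding.

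Levels were compared between genes per length, as CPM per kilobase of exon sequence in GENCODE release 29. In BHLHE22 cells BAMBI had 8.45 ± 1.07, SMAD5 7.71 ± 0.14, BMPR2 7.10 ± 0.09 and NOG 5.10 ± 0.67 (SD, n = 3), and BAMBI overlapped SMAD5. In the deposited FPKM of the same cells BMPR2 stood above BAMBI, at 6.75 to 6.94 against 4.74 to 6.11. In vector cells BAMBI had 23.3 ± 14.9, NOG 13.2 ± 2.0, SMAD5 12.2 ± 0.1 and BMPR2 8.38 ± 1.48 (SD, n = 3), and BAMBI overlapped NOG. NOG and SMAD5 overlapped in vector cells, whereas every BHLHE22 library had less NOG than SMAD5 per kilobase. In the authors' deposited FPKM this order was the other way round, with NOG at 4.86 to 6.19 and SMAD5 at 4.30 to 4.43 in BHLHE22 cells, and NOG at 11.4 to 14.3 and SMAD5 at 5.99 to 6.41 in vector cells. SMAD6 and BMP4 overlapped in BHLHE22 cells, at 4.50 ± 0.43 and 4.54 ± 0.55, while SMAD6 stood above BMP4 in vector cells, at 8.36 ± 0.21 against 3.42 ± 0.69. BMP2 and GREM1 were the lowest in both groups, at 0.547 ± 0.248 and 0.0364 ± 0.0068 in BHLHE22 cells and 0.270 ± 0.037 and 0.0231 ± 0.0218 in vector cells. In the authors' deposited FPKM (fragments scaled by gene length and library size), BMP4 averaged 1.92 in BHLHE22 cells and 1.31 in vector cells, below SMAD6 at 3.67 in BHLHE22 cells and 6.16 in vector cells. The length behind the deposited FPKM of BMP4 was 7.63 kb, longer than the 3.08 kb of its exons in GENCODE, so the order between genes depends on the gene model.

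Ratios of inhibitor genes to other genes of the set were taken within each library, as a description that restates the changes above. NOG over BMP4, each per kilobase, was 0.976, 1.23 and 1.18 in BHLHE22 cells and 3.22, 4.12 and 4.48 in vector cells. In the deposited FPKM, NOG stood above BMP4 in both groups. NOG had 4.86 to 6.19 and BMP4 1.65 to 2.11 in BHLHE22 cells. In vector cells, NOG had 11.4 to 14.3 and BMP4 1.03 to 1.48. The size of each ratio thus depends on the gene lengths used. BAMBI over BMPR1A was 3.28, 2.98 and 2.23 in BHLHE22 cells and 5.35, 11.2 and 4.18 in vector cells. SMAD6 over SMAD1 was 1.3, 1.21 and 1.46 in BHLHE22 cells and 2.48, 1.63 and 2.15 in vector cells, and SMAD6 over SMAD5 was 0.569, 0.536 and 0.648 in BHLHE22 cells and 0.687, 0.708 and 0.666 in vector cells. None of these 4 ratios overlapped between the groups. Among single tested genes, 60.5% did not overlap, and no such share was computed for ratios. Each ratio gave an unadjusted p = 0.1 in a 2-sided exact permutation test. That is the smallest p that 3 against 3 libraries allow, so none can reach 0.05. The ratios were chosen after the values of the genes were seen.

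**Figure D3:**
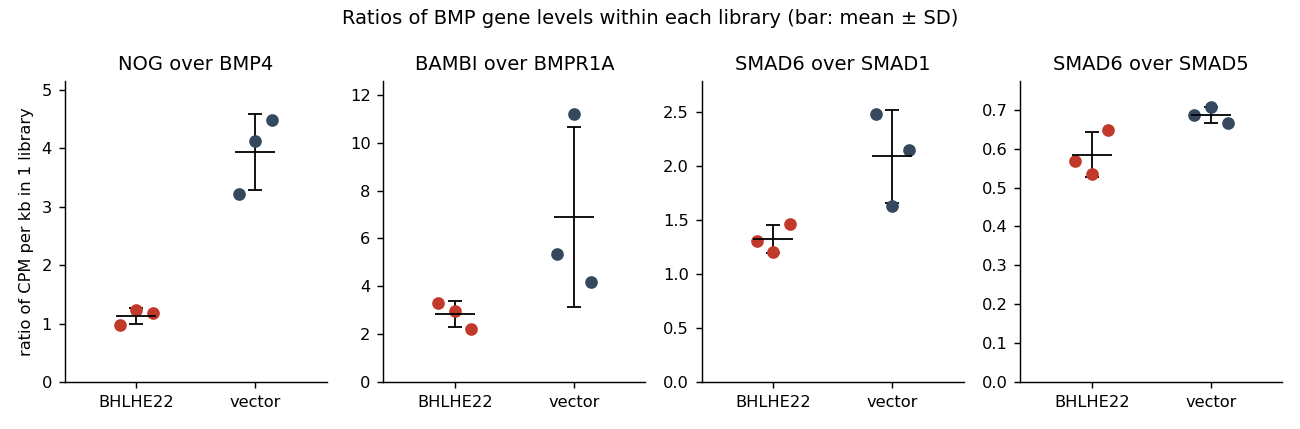
Ratio of 2 genes' CPM per kilobase within each library, in BHLHE22 and vector cells; points are libraries, bars are mean ± SD, and axes start at 0. With these lengths, NOG over BMP4 lies near 1 in BHLHE22 cells and between 3.22 and 4.48 in vector cells. In the deposited FPKM, NOG stands above BMP4 in both groups. The gap between the groups is narrow for SMAD6 over SMAD5.

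The other genes of the pathway were read in the same fit. Of 74 further genes in 5 lists, 46 were tested, of which 8 were higher and 15 lower in BHLHE22 cells. That is 50% called, close to the 49.4% of all genes. Without vector replicate 2, 5 were higher, and with unscaled library sizes 11 were higher and 12 lower. Intracellular transducers and regulators held most of the falls: 9 of 17 tested were lower, against 24.3% of all tested genes, and 1 was higher, with a median log2 fold change of -0.38. TOB1, an antiproliferative protein that represses BMP-activated SMADs, fell to 80.7 ± 6.2 CPM in BHLHE22 cells, against 164 ± 9 CPM in vector cells (SD, n = 3). SMURF2, a ubiquitin ligase for SMADs and receptors, fell to 182 ± 3 CPM in BHLHE22 cells, against 352 ± 55 CPM in vector cells. SMAD9, the third BMP-responsive SMAD and the rarest, fell to 3.37 ± 0.61 CPM in BHLHE22 cells, against 9.59 ± 2.48 CPM in vector cells. CTDSP2, a phosphatase that acts on SMADs, had a log2 fold change of -0.58. The adjusted p-values of these 4 genes were 0.000201, 0.000596, 0.00159 and 0.00104 in that order (edgeR's quasi-likelihood test).

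The partner SMAD4 and the inhibitor SMAD7 were singled out after their values were seen. SMAD4 had 52.1, 28.6 and 33.7 CPM in BHLHE22 cells and 63.6, 67.1 and 70.9 CPM in vector cells. Its log2 fold change of -0.82 was called (adjusted p = 0.0160, edgeR's quasi-likelihood test), but not without BHLHE22 replicate 3 (0.0638), vector replicate 2 (0.0533) or vector replicate 3 (0.0519). SMAD7, which like SMAD6 is induced as feedback, was rare, with 2.33 ± 0.08 CPM in BHLHE22 cells and 3.63 ± 0.80 CPM in vector cells (SD, n = 3). It was called lower (log2 fold change -0.64, adjusted p = 0.0351, edgeR's quasi-likelihood test). That call ended with the replicate number as a block (0.0645), with DESeq2 (0.0989), with unscaled library sizes (0.0746), without the low-count filter (0.0600), and without any 1 of the BHLHE22 libraries or vector replicate 2 (0.0684 to 0.112).

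Outside the cell, further antagonists and modulators moved in both directions: 4 of 10 tested were higher and 3 lower, against 25.1% and 24.3% of all tested genes, with a median of 0.29. FSTL1, a secreted follistatin-like protein reported to bind BMP4, averaged 515 ± 9 CPM in BHLHE22 cells and 247 ± 20 CPM in vector cells, a log2 fold change of 1.06. CRIM1, a membrane protein that tethers BMPs, averaged 199 ± 9 CPM in BHLHE22 cells and 141 ± 6 CPM in vector cells. TLL1 and BMP1 encode proteases that cleave the antagonist chordin, and both fell. TLL1 was 3.41-fold lower at 23.0 ± 2.8 CPM in BHLHE22 cells, against 78.5 ± 29.5 CPM in vector cells, and BMP1, which despite its name is a protease, was 1.63-fold lower. Their substrate gene CHRD had 0 reads over the BHLHE22 and 5 over the vector libraries. The adjusted p-values were 0.000134 for FSTL1, 0.00149 for CRIM1, 0.0023 for TLL1 and 0.00328 for BMP1 (edgeR's quasi-likelihood test).

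The other ligands had a median of -0.35, and 0 of 5 tested were higher, against 25.1% of all tested genes. Against 24.3% of all tested genes, 1 of the 5 was lower. It was BMP3, which encodes a BMP that opposes bone formation, at 10.2 ± 2.1 CPM in BHLHE22 cells and 27.6 ± 3.7 CPM in vector cells (log2 fold change -1.44, adjusted p = 0.000638, edgeR's quasi-likelihood test). BMP5, BMP7, GDF2 and GDF6 had 0 reads in every library. Of 8 tested receptors and co-receptors 1 was lower and 1 higher, against 24.3% and 25.1% of all tested genes, with a median of 0.12. TGFBR3, the co-receptor betaglycan, fell to 20.5 ± 3.8 CPM in BHLHE22 cells, against 46.8 ± 6.4 CPM in vector cells (log2 fold change -1.19, adjusted p = 0.00101, edgeR's quasi-likelihood test). RGMB, a BMP co-receptor of the repulsive guidance family, had a log2 fold change of 0.24 and an adjusted p of 0.0379 (edgeR's quasi-likelihood test). Its call ended with DESeq2 and without any single library other than BHLHE22 replicate 3 (adjusted p = 0.0544 to 0.0940). The type I receptor genes ACVR1 and BMPR1B, named after their values were seen, had log2 fold changes of -0.45 (95% interval -0.90 to 0.00) and 0.57 (95% interval -0.12 to 1.26) and were not called. ACVR1 was called lower with the replicate number as a block (adjusted p = 0.0490) and without vector replicate 1 (0.0105), and BMPR1B was called higher without vector replicate 3 (0.0218), all by edgeR's quasi-likelihood test.

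**Figure D4:**
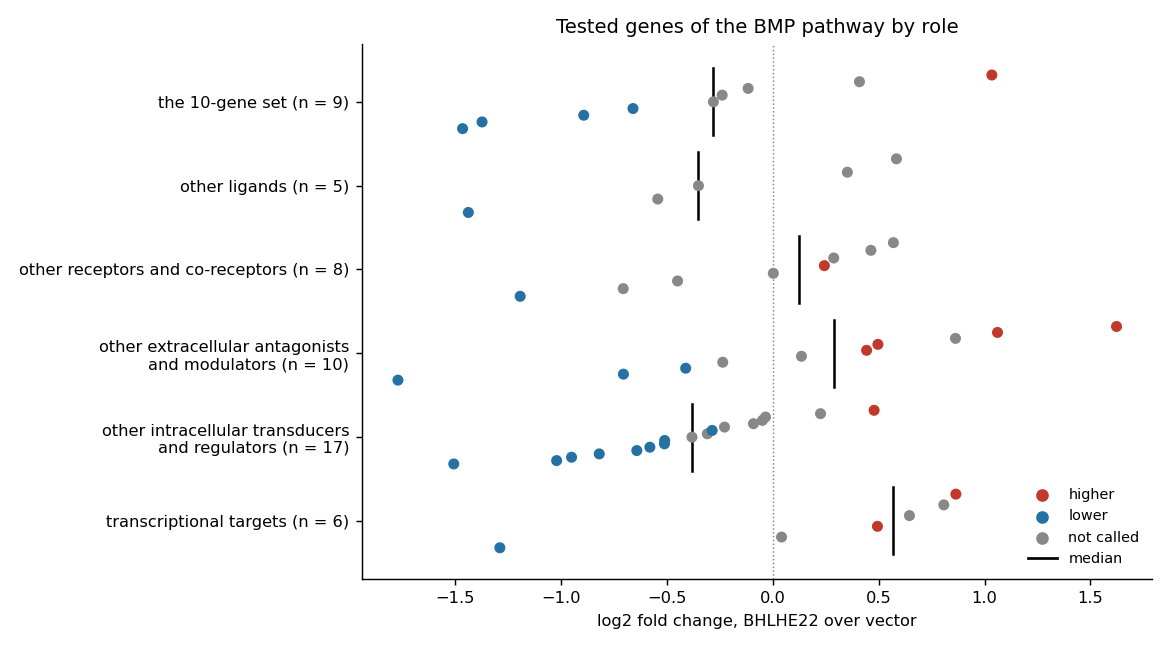
Log2 fold change, BHLHE22 over vector, of every tested gene in the 10-gene set and in 5 further lists of the pathway, by role; each point is a gene, colours give the call, and black lines are list medians. The intracellular regulators lie mostly below 0, with a median of -0.38. Of 6 target genes 5 lie above 0, of which 2 were called higher. Of all 15945 tested genes, 8030 lie above 0.

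The transcriptional targets of the pathway did not move as a block. Of 6 tested, 2 were higher and 1 lower in BHLHE22 cells, with a median of 0.57. The 50% called is near the 49.4% of all tested genes. ID1, an inhibitor of basic helix-loop-helix factors and the standard readout of BMP signalling, had 299, 355 and 421 CPM in BHLHE22 cells and 236, 276 and 251 CPM in vector cells. The lowest BHLHE22 library was above the highest vector library, and ID1 was called higher (log2 fold change 0.49, adjusted p = 0.0155, edgeR's quasi-likelihood test). The call ended without vector replicate 1 (adjusted p = 0.0556). MSX1, a homeobox gene, had 2.89, 3.66 and 4.08 CPM in BHLHE22 cells and 2.12, 1.84 and 1.90 CPM in vector cells (log2 fold change 0.86, adjusted p = 0.00965, edgeR's quasi-likelihood test). HEY1, a repressor that is a target of both Notch and BMP signals, fell to 27.7 ± 3.9 CPM in BHLHE22 cells, against 67.7 ± 12.6 CPM in vector cells (log2 fold change -1.29, adjusted p = 0.000794, edgeR's quasi-likelihood test). ID2 and ID3, named after their values were seen, had log2 fold changes of 0.81 (95% interval -0.31 to 1.92) and 0.65 (95% interval -0.18 to 1.47) and were not called.

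The genes whose pattern over the 6 libraries was most like that of BAMBI, the called gene with the largest change among the 10, shared its high level in vector replicate 2. Likeness, a description with no test, was the root mean square difference of log2 CPM after each gene was centred on its mean; its median over all tested genes was 0.853. The closest were AL138828.1 at 0.0953, a gene with at most 43 reads in a library, CEBPD at 0.139, ZNF550 at 0.181, SPRED3 at 0.185 and IER3 at 0.191. CEBPD encodes a transcription factor of stress and inflammation, SPRED3 a negative regulator of the MAP kinase pathway and IER3 an immediate early protein. Their log2 fold changes ran from -1.74 for AL138828.1 to -1.3 for IER3, and all but SPRED3 (adjusted p = 0.0547, edgeR's quasi-likelihood test) were called lower.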

How the data were processed

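Total RNA of PC-3 cells was isolated with TRIzol and made into libraries with an NEBNext Ultra RNA kit, per the labels' protocols; whether strand was kept is not given in the sources used here. The authors deposited whole-number read counts per gene and FPKM values, per the file headers. Tools in the submitters' processing notes are HISAT2 2.1.0, CASAVA 1.8, edgeR and StringTie 1.3.4b, without their roles, and the builds are GRCh38 and hg38. Columns headed control were taken as vector libraries. Positions are those of the deposited table; 97.5% of 58039 genes shared with GENCODE release 29 had identical positions.

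Genes kept by filterByExpr were tested with edgeR 4.0.16 in R 4.3.3 (quasi-likelihood, robust, 2-sided, group as the only term, TMM scaling), on counts, with Benjamini-Hochberg adjustment over all 15945 tested genes and a threshold of 0.05. CPM values are counts over the TMM-scaled library size; 1 read was worth 0.06 to 0.078 CPM. SE is the log2 fold change over the square root of F. The procedure was run on counts simulated from this fit, with far fewer changed genes than were called in the data. Its outcome is not given here, so it lends no weight to the calls. Floors are 3 counts and cover counting error only.

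The 10 genes and the lists were chosen with earlier results of these data known. Named are the 10 genes, up to 4 called genes with the smallest p of each list, the 5 genes most like the called gene of the 10 with the largest change and a mean of at least 5 CPM, and others where said. Alternatives were DESeq2 1.42.0, limma-voom (limma 3.58.1), 2 other scalings, 2 other filters, a replicate block, leaving out each library and a threshold of 0.01. The libraries all differed by more than sampling noise (chi-square per degree of freedom of at least 10.98).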

Additional observations from a re-analysis of the deposited data

How the results depend on the processing

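Of 376 alternative values for single named genes, 338 kept their direction and their side of the threshold, and no called gene changed sign. The 10-gene set had 4 genes lower in the reported fit and 3 to 5 in every alternative. Its 1 higher gene, BMP2, was not called with DESeq2's size factors, DESeq2, limma-voom, a filter of 1 CPM in 3 libraries or a threshold of 0.01 (0 higher in each), and 2 were higher with unscaled library sizes. Leaving out 1 library gave 0 to 1 higher. For the other pathway genes, the count higher was 5 to 8 on leaving out 1 library and 4 at a threshold of 0.01, against 8. At that threshold 2480 of all genes were higher and 2482 lower. The uncalled BMPR1A had a log2 fold change of 0.03 with unscaled library sizes, against -0.12. A stricter threshold cannot add calls, and leaving out 1 library also leaves fewer libraries. The cause of these differences was not tested.

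The replicate numbers did not pair the libraries: same-numbered deviations from the group means correlated at 0.0054, -0.027 and 0.011. With the replicate number as a block, 1 gene of the set was higher and 4 lower, as without it, and 7292 of all genes were called, against 7876. Genes of few reads, such as BMP2, GREM1 and SMAD7, have a larger counting error relative to their level. The part of depth in their results was not tested.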
